A study of Homo sapiens with 6 samples.

Results

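The genes described here encode the proteins of the mitochondrial ribosome. They were taken as all protein-coding genes whose symbol starts with MRPL or MRPS followed by a number, leaving out chromosome 21 and a stretch of the long arm of chromosome 8. Of the 59715 gene IDs in the deposited table, 78 matched by symbol and type, and 3 of them (MRPL39, MRPS6 and MRPS28) were left out by position, which left 75 genes on 20 chromosomes. All 75 had enough counts to be tested, among 14543 tested genes in all, and the lowest count of any of them in any library was 136. By symbol 48 belong to the large subunit (MRPL) and 27 to the small subunit (MRPS).

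RNA was sequenced after poly(A) selection from the human colorectal carcinoma line HCT116 in 3 libraries of wild-type cells (MLL4WT) and 3 of cells with a knockout of the histone methyltransferase MLL4 (MLL4KO), called wild type and knockout below. Both genotypes were grown in the same serum-containing medium, and the labels name no treatment. The labels do not say where the deletion lies, whether the knockout is a single clone, or whether each library stands for a culture of its own, so the p-values measure the spread between these libraries, which may be technical. The comparison asks how transcript levels differ between the genotypes.

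The mitochondrial ribosome sits inside the organelle and makes the few proteins that the mitochondrial genome encodes, which are core parts of the respiratory chain and the ATP synthase. Its small subunit reads the messenger RNA and its large subunit joins the amino acids. The ribosomal RNAs come from mitochondrial DNA, while every ribosomal protein is encoded in the nucleus, made in the cytosol and imported, so the nucleus has to supply a large set of proteins in step. Many of these proteins have a counterpart in the bacterial ribosome, and others are found only in mitochondria.

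Library totals ranged from 6829400 to 19736751 counts, with MLL4WT replicate 1 the shallowest. The labels do not say whether MLL4 stands for KMT2D or KMT2B, since the name has been used for both. KMT2D was at 240, 231 and 234 CPM (counts scaled to a common library size) in wild type against 230, 243 and 225 CPM in the knockout, and whole-gene counts cannot show a deletion of a few exons. KMT2B went from 94.1, 90.3 and 87.2 CPM to 67.1, 61.9 and 60.6 CPM (log2 -0.51 ± 0.06, edgeR adjusted p = 2.33e-05), so the counts do not settle which gene was targeted. Of 10 colon epithelial markers 6 had a group mean of at least 1 CPM (EPCAM, CDH1, KRT8, KRT18, KRT19 and CDX2) and CDX1 was at 0 in every library. The summed level of the 10 markers was 1610 to 1670 CPM in MLL4WT and 1080 to 1110 CPM in MLL4KO. That difference came from KRT8, KRT18, EPCAM and KRT19. Means of CDH1 (10.9 CPM in MLL4WT and 11.3 CPM in MLL4KO) and CDX2 (28.7 and 30.5 CPM) were not lower in the knockout. The part of these marker levels in the results below was not tested. Leukocyte markers summed to at most 1.86 CPM in any library, endothelial markers to 3.76 CPM and hepatocyte markers to 0.266 CPM. Fibroblast markers summed to 28.2 to 28.8 CPM in MLL4WT and 27.0 to 30.6 CPM in MLL4KO, mostly from COL1A1 (means 22.4 and 27.3 CPM).

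The promoters of these genes are shown first, with motifs of regulators known for mitochondrial genes. RefSeq promoter windows on GRCh38.p14, which run from 250 bases before to 50 bases after the annotated start, were found for 67 of the 75 genes. Both strands were searched for 4 motifs, namely CCGGAAG of the ETS family, to which the mitochondrial regulator GABPA belongs, AAGATGGC of YY1, the palindromic NRF1 motif and the E-box CACGTG. The 5 windows printed below are those of the gene that fell most (MRPL12), the small subunit gene MRPS12 with matches to both the ETS and the YY1 motif, MRPS18B, which had the smallest adjusted p of the small subunit genes, MRPL46, which lies head to head with MRPS11, and MRPL42, the gene that rose. Each runs 5′ to 3′ on the strand of its gene, and capitals mark matches to any of the 4 motifs, on either strand. The windows are chr17:81703117-81703416, plus strand; chr19:38930694-38930993, plus strand; chr6:30617590-30617889, plus strand; chr15:88467339-88467638, minus strand; and chr12:93467264-93467563, plus strand.
MRPL12: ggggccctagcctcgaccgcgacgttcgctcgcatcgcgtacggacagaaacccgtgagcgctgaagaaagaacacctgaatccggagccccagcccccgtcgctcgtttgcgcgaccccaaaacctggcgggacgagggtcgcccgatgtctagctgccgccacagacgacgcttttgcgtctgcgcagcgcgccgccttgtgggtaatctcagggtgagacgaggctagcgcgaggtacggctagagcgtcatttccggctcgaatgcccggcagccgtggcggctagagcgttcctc
MRPS12: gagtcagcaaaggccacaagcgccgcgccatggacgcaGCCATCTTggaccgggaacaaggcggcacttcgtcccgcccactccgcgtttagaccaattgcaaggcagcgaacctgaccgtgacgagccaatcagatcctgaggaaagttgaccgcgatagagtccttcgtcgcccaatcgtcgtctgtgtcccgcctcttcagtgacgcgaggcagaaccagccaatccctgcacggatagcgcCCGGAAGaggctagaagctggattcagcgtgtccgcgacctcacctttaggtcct
MRPS18B: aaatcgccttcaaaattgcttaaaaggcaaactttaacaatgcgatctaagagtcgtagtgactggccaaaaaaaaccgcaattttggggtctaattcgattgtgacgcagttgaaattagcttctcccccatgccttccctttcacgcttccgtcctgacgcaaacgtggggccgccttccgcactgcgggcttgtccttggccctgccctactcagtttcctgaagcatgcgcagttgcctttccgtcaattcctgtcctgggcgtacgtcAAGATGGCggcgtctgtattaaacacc
MRPL46: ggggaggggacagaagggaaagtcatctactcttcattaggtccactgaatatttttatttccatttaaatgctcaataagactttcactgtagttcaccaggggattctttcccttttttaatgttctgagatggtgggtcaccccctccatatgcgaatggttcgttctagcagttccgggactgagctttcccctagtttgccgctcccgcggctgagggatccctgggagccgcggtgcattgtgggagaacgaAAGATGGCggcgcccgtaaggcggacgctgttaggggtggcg
MRPL42: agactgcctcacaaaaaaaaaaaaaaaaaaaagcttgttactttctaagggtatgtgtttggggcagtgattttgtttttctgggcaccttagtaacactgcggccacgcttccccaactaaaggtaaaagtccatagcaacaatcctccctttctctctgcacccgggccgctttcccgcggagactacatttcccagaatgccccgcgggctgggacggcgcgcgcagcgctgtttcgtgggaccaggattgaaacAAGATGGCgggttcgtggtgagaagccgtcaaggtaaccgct

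The ETS motif was present in 29 of the 67 windows (43.3%), against 19.3% of the windows of 10659 tested genes and 10.7% of all 27305 windows in the table. The YY1 motif was present in 20 windows (29.9%), against 5.37% of tested genes and 3.03% of all windows. Its letters include the start codon ATG, and 16 of its 21 matches in these genes (76.2%) began within 50 bases of the annotated start, against 69.3% of its matches in tested genes. The NRF1 motif was found in 8 windows (11.9%, against 11.8% of tested genes and 6.28% of all windows), and the E-box in 6 (8.96%, against 10.1% of tested genes and 7.43% of all). Of genes that fell, 17 of 38 windows (44.7%) held the ETS motif and 12 the YY1 motif, and of genes that did not pass, 12 of 28 (42.9%) and 7; the shares were not tested against each other. In the windows above, MRPL12 holds none of the 4 motifs, MRPS12 holds an ETS match at its start, and MRPS18B, MRPL46 and MRPL42 hold a YY1 match just downstream of theirs. A match is a run of letters and does not show binding.

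Most mitochondrial ribosomal protein genes had less transcript in the knockout. At an adjusted p under 0.05 (edgeR quasi-likelihood test, adjusted by Benjamini-Hochberg over all 14543 genes) 43 of the 75 fell (57.3%) and 1 rose, while the other 31 were not called. Among all tested genes 41.4% were called, of which falls made up 21.6% of all tested genes and rises 19.8%. The median log2 fold change, MLL4KO relative to MLL4WT, was -0.23 over these genes and -0.00 over all tested genes, and 67 of the 75 had a value below 0, against 50.6% of all tested genes. The quartiles were -0.38 and -0.09, and the extremes were -0.77 and 0.18. All 3 knockout libraries lay below all 3 wild-type libraries in 44 of the 75 genes (26.6% of all tested genes) and above them in 1 (25.9%), where 52.5% of all tested genes had no overlap in either direction. Overlapping libraries were seen in 2 of the 44 called genes, MRPL27 and MRPL45.

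**Figure D1:**
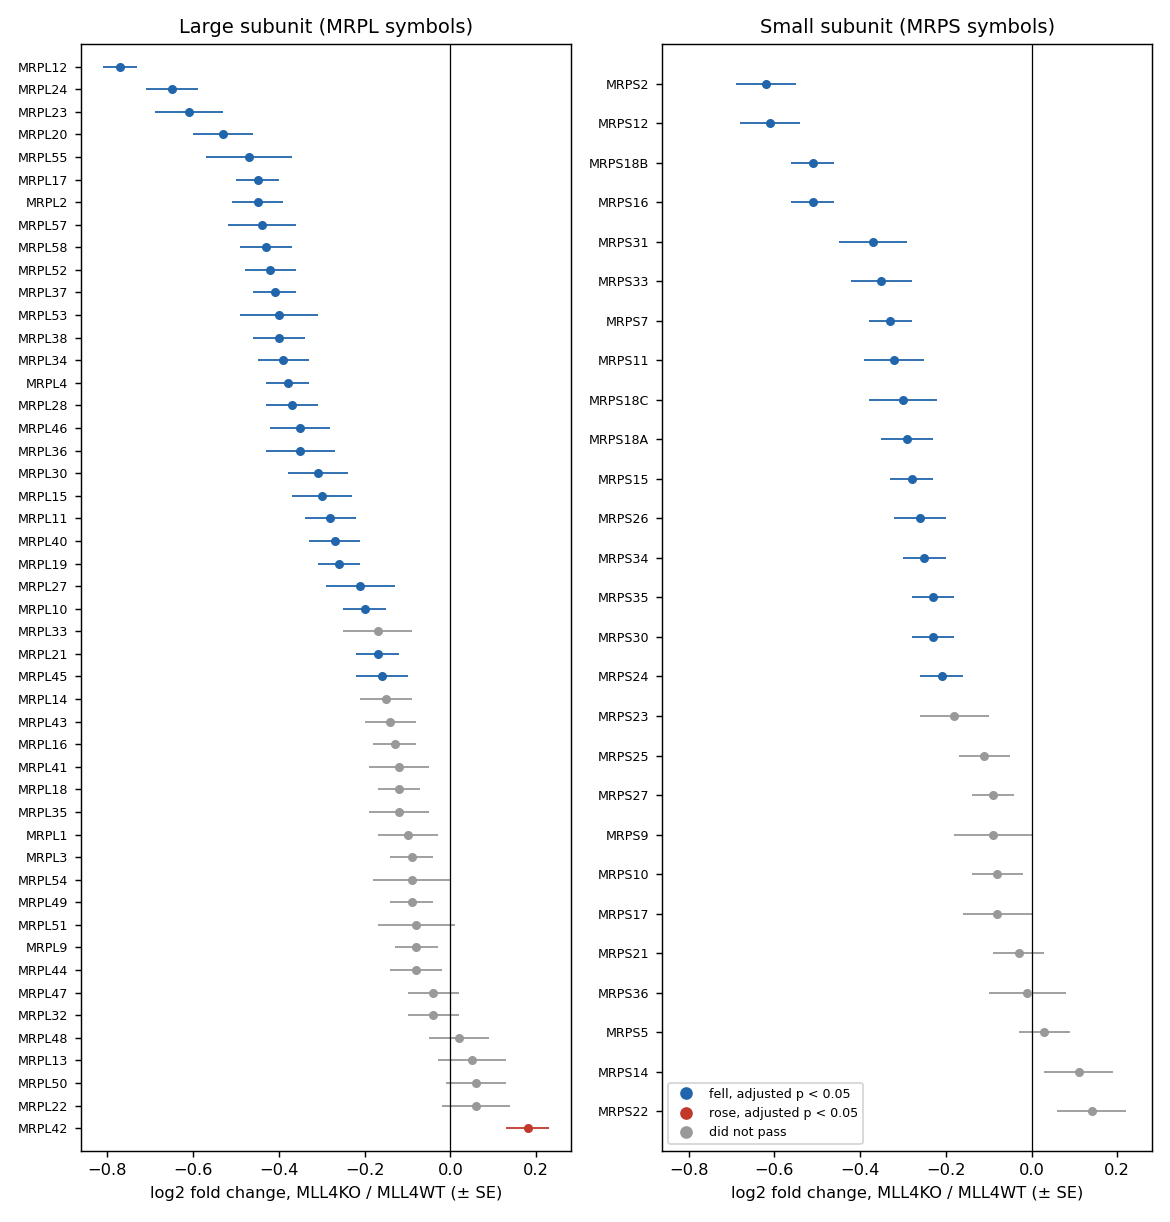
Log2 fold change (MLL4KO relative to MLL4WT, horizontal axis) of each of the 75 genes, with bars of 1 standard error, 48 large subunit genes on the left and 27 small subunit genes on the right, ordered by value. Most points of both panels lie left of 0, from MRPL12 at -0.77 to MRPL42 at 0.18.

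The falls were small for each gene. Called falls ran from 1.12-fold to 1.70-fold. The counts behind these levels are moderate, with a median of 67.0 CPM in MLL4WT against 26.6 CPM over all tested genes. MLL4WT replicate 1, alone under its code in the column headers, stood apart. A fit with the header code as a factor sets that library aside too. Such a fit and leaving the library out are therefore not separate checks. Without that library 54 of the 75 genes fell and the median was -0.23, while 25.7% of all tested genes fell. Each of the other 2 header codes held both genotypes. The median was -0.22 with 68 genes below 0 between MLL4WT replicate 3 and MLL4KO replicate 1, and -0.26 with 70 genes below 0 between MLL4WT replicate 2 and MLL4KO replicates 2 and 3. Over all 14543 tested genes the median was -0.01 in both, with 7391 and 7475 genes below 0. All 44 called genes kept their direction within both codes.

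Large and small subunit genes were lower by like amounts. Among the 48 MRPL genes 27 fell (56.2%) and 1 rose, with a median log2 fold change of -0.21. Among the 27 MRPS genes 16 fell (59.3%) and none rose, with a median of -0.23. None of these 27 was higher at an unadjusted p under 0.05 in the edgeR test, and none rose by DESeq2 or limma-voom. Symbols do not place every protein correctly, since MRPS18A and MRPS30 sit in the large subunit of the human structure, and MRPS36 is now known mainly as a component of the 2-oxoglutarate dehydrogenase complex. Placed by structure, 29 of 50 large subunit genes fell (median -0.22) and 14 of 24 small subunit genes fell (median -0.24).

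The summed level of the 50 large subunit genes was 4076, 4155 and 4073 CPM in wild type and 3432, 3443 and 3501 CPM in the knockout. For the 24 small subunit genes it was 2100, 2159 and 2132 CPM in wild type and 1796, 1802 and 1807 CPM in the knockout. Neither pair of groups overlapped, and the means differed 1.19-fold for the large and 1.18-fold for the small subunit. The ratio of large to small subunit counts was 1.92 ± 0.0153 in MLL4WT and 1.92 ± 0.0173 in MLL4KO (SD, n = 3), with single libraries of both genotypes between 1.91 and 1.94. Before any scaling, all 75 genes together held 0.609% to 0.616% of the counts of each MLL4WT library and 0.535% to 0.543% of those of each MLL4KO library. In bulk RNA, fewer cells with high levels and lower levels in every cell cannot be told apart.

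**Figure D2:**
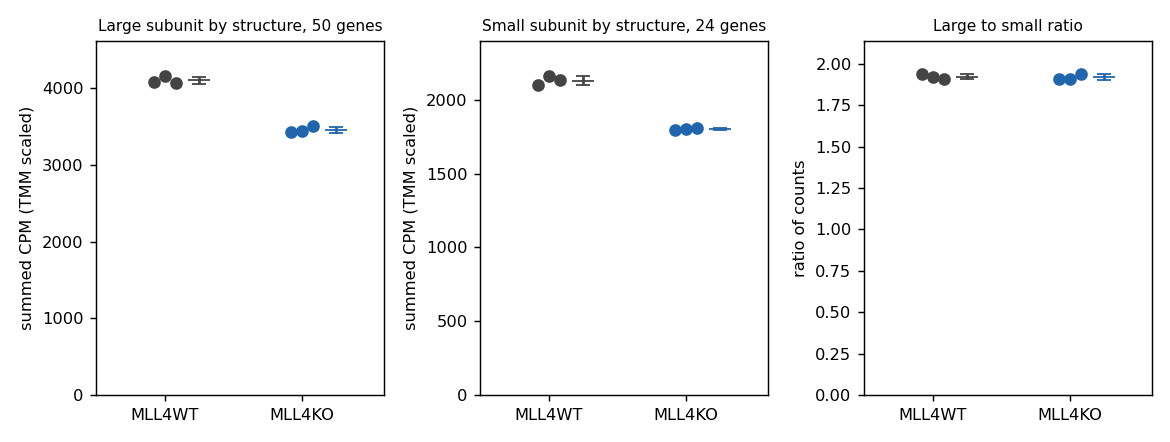
Summed level in each library of the large subunit genes (left, CPM) and the small subunit genes (middle, CPM), placed by structure, and the ratio of their counts (right). Points are libraries, bars are mean ± SD of 3 libraries, and the axes start at 0; both sums are lower in MLL4KO, and the ratio stays between 1.91 and 1.94.

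Genes for proteins with a bacterial counterpart and genes for proteins specific to mitochondria both had medians below 0. Among large subunit genes with a bacterial counterpart 18 of 30 fell, with a median of -0.24, and among mitochondria-specific ones 11 of 20 fell, with a median of -0.20. In the small subunit 8 of 14 with a bacterial counterpart fell, with a median of -0.25, as did 6 of 10 mitochondria-specific ones, with a median of -0.24. Differences between these classes were not tested.

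In the large subunit the deepest fall was that of MRPL12, whose protein forms the flexible stalk that recruits the translation GTPases (chromosome 17, 81703357 to 81707526). Wild-type libraries held 256, 253 and 242 CPM of it and knockout libraries 146, 149 and 147 CPM. The groups lay far apart, with a fold of 1.70 (log2 -0.77 ± 0.04 SE, edgeR adjusted p = 1.14e-07). MRPL10 anchors that stalk, and its transcript fell less, from 130, 121 and 119 CPM to 107, 104 and 110 CPM (log2 -0.20 ± 0.05, edgeR adjusted p = 0.00852). The MRPL10 call was lost with total counts only, with GC and length trends removed, and without MLL4KO replicate 2.

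Among genes for proteins around the tunnel through which the new chain leaves, 4 that fell and another that did not pass are named. They were picked by place with values known and do not cover every tunnel protein. Their split is therefore not the share of tunnel genes that fell, and 57.3% of all 75 genes fell. MRPL24 (chromosome 1, 156737303 to 156741590) went from 51.3, 51.9 and 54.3 CPM to 33.6, 32.7 and 34.5 CPM, a fall of 1.57-fold (log2 -0.65 ± 0.06, edgeR adjusted p = 5.63e-06). MRPL23, at the tunnel exit (chromosome 11, 1947278 to 1984522), went from 71.6, 57.0 and 59.7 CPM to 41.4, 39.0 and 41.2 CPM, with MLL4WT replicate 1 the highest (log2 -0.61 ± 0.08, edgeR adjusted p = 7.73e-05). MRPL17, also near the exit, fell 1.37-fold and MRPL4, which lines the tunnel, fell 1.30-fold (edgeR adjusted p = 3.84e-05 and 7.97e-05). MRPL22, another tunnel protein, had 43.5 ± 4.76 CPM in wild type and 45.9 ± 1.79 CPM in the knockout (edgeR adjusted p = 0.580).

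Some other large subunit genes, picked after their values were seen, fell as well. MRPL2, next to the peptidyl transferase centre, fell 1.37-fold (log2 -0.45 ± 0.06, edgeR adjusted p = 0.000116). MRPL20 went from 82.8, 102 and 97.0 CPM to 69.0, 64.0 and 64.6 CPM (log2 -0.53 ± 0.07, edgeR adjusted p = 0.000116). MRPL11, which together with the stalk forms the site where translation GTPases bind, fell 1.22-fold (edgeR adjusted p = 0.00316). MRPL58, a peptidyl-tRNA hydrolase that became part of the ribosome, went from 65.8, 60.8 and 60.9 CPM to 46.7, 45.8 and 46.3 CPM (log2 -0.43 ± 0.06, edgeR adjusted p = 8.30e-05). In these 4 genes no knockout library reached a wild-type library. MRPL3, among the most abundant of the family by CPM, did not pass, at 203, 225 and 224 CPM against 205, 201 and 210 CPM (log2 -0.09 ± 0.05, edgeR adjusted p = 0.181). It passed as a fall without MLL4WT replicate 1 (log2 -0.12, adjusted p = 0.00138) and with the header code in the fit (log2 -0.13, adjusted p = 0.000781).

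Of the mitochondria-specific large subunit proteins, MRPL37 (chromosome 1, 54184041 to 54225464) had the smallest adjusted p. Wild-type libraries held 211, 192 and 186 CPM and knockout libraries 146, 148 and 149 CPM, with no overlap (log2 -0.41 ± 0.05, edgeR adjusted p = 7.02e-05). The single rise was that of MRPL42 (chromosome 12, 93467488 to 93516213), another such protein, from 126, 132 and 139 CPM to 142, 151 and 157 CPM. The groups came close without overlapping, and the rise of 1.13-fold (log2 0.18 ± 0.05, edgeR adjusted p = 0.0203) was lost without MLL4WT replicate 2 (adjusted p = 0.0562), without MLL4KO replicate 2 (0.0672) and without MLL4KO replicate 3 (0.0903). MRPS30 and MRPS18A, placed in the large subunit by structure, fell 1.18-fold and 1.22-fold (edgeR adjusted p = 0.00185 and 0.00205).

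In the small subunit the deepest falls were those of MRPS2 and MRPS12. MRPS12, whose bacterial counterpart lies at the decoding centre (chromosome 19, 38930548 to 38933162), went from 103, 86.8 and 87.9 CPM to 60.1, 58.5 and 61.8 CPM, with every MLL4KO library well below every MLL4WT library (log2 -0.61 ± 0.07, edgeR adjusted p = 1.91e-05). MRPS2 (chromosome 9, 135499984 to 135504673) went from 189, 154 and 152 CPM to 109, 107 and 105 CPM, with MLL4WT replicate 1 the highest (log2 -0.62 ± 0.07, edgeR adjusted p = 7.39e-05). MRPS16 (chromosome 10, 73248843 to 73252693) went from 123, 116 and 110 CPM to 79.3, 82.1 and 82.2 CPM (log2 -0.51 ± 0.05, edgeR adjusted p = 1.41e-05). MRPS7, of the head of the subunit, and MRPS15 also fell, with log2 values of -0.33 and -0.28 (edgeR adjusted p = 0.000330 and 0.00103) and no overlap between the genotypes. Exons of MRPS12 overlap those of SARS2 on the opposite strand over 16.3% of their length.

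Of the 10 mitochondria-specific small subunit genes, 6 fell, led by MRPS18B. MRPS34, at 190, 188 and 178 CPM in wild type the most abundant of those that fell, was at 159, 156 and 150 CPM in the knockout (log2 -0.25 ± 0.05, edgeR adjusted p = 0.00110), and it did not pass once GC and length trends were taken out. MRPS35 fell 1.17-fold and MRPS33 1.28-fold (edgeR adjusted p = 0.00404 and 0.00103). MRPS31 went from 23.9, 27.3 and 25.5 CPM to 20.3, 18.9 and 20.5 CPM (log2 -0.37 ± 0.08, edgeR adjusted p = 0.00205), but its named pseudogenes held 21.6% as many counts, so reads may have been split among them. MRPS27, an RNA-binding protein, and MRPS23 did not pass, with log2 values of -0.09 ± 0.05 and -0.18 ± 0.08 (edgeR adjusted p = 0.183 and 0.0791). MRPS23 passed as a fall without MLL4WT replicate 1, with the header code in the fit, without a filter and with GC and length trends removed (log2 -0.17 to -0.27).

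The 3 MRPS18 genes descend from 1 bacterial protein, and their products sit at different places. In the classes above, MRPS18A and MRPS18B were nonetheless counted as mitochondria-specific, and MRPS18C as having a bacterial counterpart. MRPS18B, in the small subunit (chromosome 6, 30617709 to 30626395), went from 142, 141 and 133 CPM to 97.5, 94.8 and 100 CPM, a fall of 1.42-fold (log2 -0.51 ± 0.05, edgeR adjusted p = 7.99e-06). MRPS18A, in the large subunit, went from 67.2, 61.7 and 62.4 CPM to 50.4, 50.8 and 54.8 CPM (log2 -0.29 ± 0.06, edgeR adjusted p = 0.00205), and did not pass once GC and length trends were taken out (log2 -0.13, adjusted p = 0.0647). MRPS18C went from 36.1, 45 and 45.2 CPM to 34.0, 35 and 35.5 CPM (log2 -0.30 ± 0.08, edgeR adjusted p = 0.0109). Its lowest MLL4WT library lay just above the MLL4KO libraries, and the call was lost without MLL4WT replicate 2 (adjusted p = 0.0588), MLL4WT replicate 3 (0.0660) or MLL4KO replicate 1 (0.0642). Exons of MRPS18C overlap those of ABRAXAS1 on the opposite strand over 40.2% of their length, so its reads may be shared.

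**Figure D3:**
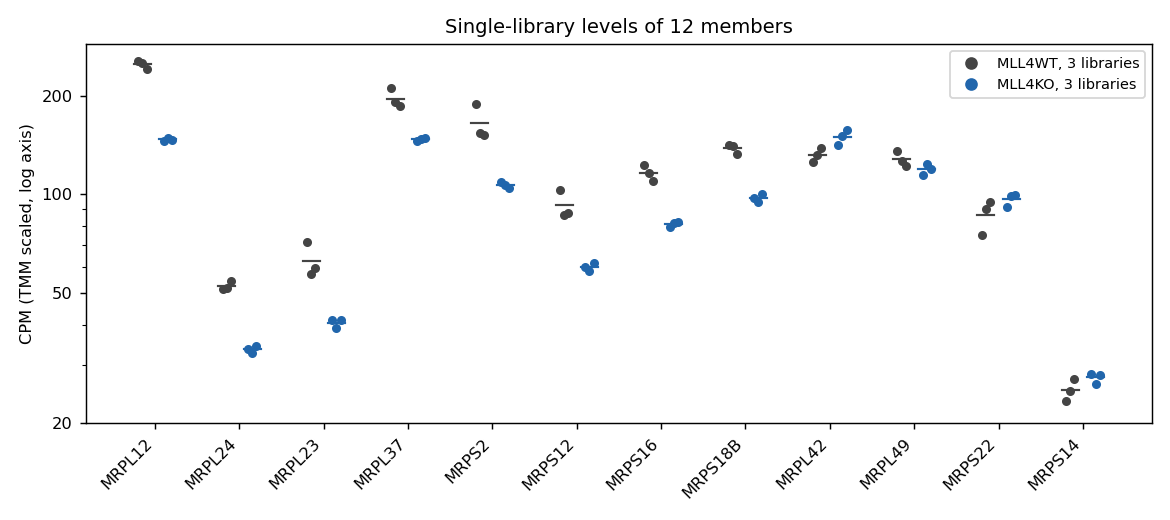
Level in each library (CPM, log axis) of 12 of the genes, MLL4WT in grey and MLL4KO in blue, with lines at the group means. The 8 genes on the left have all MLL4KO points below all MLL4WT points, MRPL42 has them above, and MRPL49, MRPS22 and MRPS14 overlap.

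Per kilobase of transcript, the highest levels in MLL4WT were those of MRPL49 (251 CPM per kilobase), MRPL12 (244) and MRPL51 (193), and the lowest were those of MRPS14 (11.9), MRPL50 (13.2) and MRPL22 (14.1). Of these 6, MRPL12 fell and the other 5 did not pass the test. MRPL49 held 128 ± 7.03 CPM in wild type and 120 ± 4.27 CPM in the knockout (edgeR adjusted p = 0.191), and MRPL51 at 106 ± 16.4 and 102 ± 0.580 CPM (adjusted p = 0.482). Without MLL4WT replicate 1, where it was lowest, MRPL51 passed downward (log2 -0.18, adjusted p = 0.000302). Exons of MRPL51 overlap those of NCAPD2, exons of MRPL49 those of FAU, and exons of MRPS14 those of CACYBP. Each of these partners is more abundant and on the opposite strand, and CACYBP held 24952 counts against 2415 of MRPS14. Among genes that did not pass, MRPS22 had the highest value after MRPL42, at 75.2, 90.1 and 95.1 CPM against 91.4, 99.1 and 99.3 CPM (log2 0.14 ± 0.08, edgeR adjusted p = 0.176), with overlapping groups. With total counts only and with GC and length trends removed, MRPS22 passed as a rise.

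GC content moved with the size of the fall. The median GC content of the 75 genes was 49.8%, close to the 49.9% of tested protein-coding genes. Among the 37 genes above their median GC 29 fell (78.4%), with a median log2 fold change of -0.33. Among the 38 at or below it 14 fell (36.8%) and 1 rose, with a median of -0.11. Tested protein-coding genes shifted the same way on a smaller scale, with 31.2% fallen above that GC value and 15.9% at or below it, at medians of -0.08 and 0.05. Across the 75 genes, which share the 6 libraries, Spearman's rho between GC content and log2 fold change was -0.52, and across tested protein-coding genes -0.19. Whether this trend is technical was not tested. The genes are also short, at a median of 1147 bases against 2570 for tested protein-coding genes, and 30.6% of all protein-coding genes of up to that length fell.

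With the GC and length trends of each library removed, 36 of the 75 genes fell and 2 rose, at a median of -0.14, while 3153 of 12601 tested protein-coding genes fell, at a median of -0.01. Then 22 of the 37 genes above the median GC fell (59.5%) and 14 of the 38 others (36.8%), and rho was -0.17. Of the 44 calls 36 remained and no gene changed sign. Falls that remained but shrank by more than 1.5 times on the log2 scale were those of MRPL4 (-0.21), MRPL28 (-0.20), MRPL34 (-0.22), MRPL38 (-0.25), MRPL55 (-0.29) and MRPS15 (-0.16). Those of MRPL12 (log2 -0.58), MRPL24 (-0.52), MRPS16 (-0.49), MRPS2 (-0.47), MRPL17 (-0.45) and MRPS12 (-0.45) stayed within that factor.

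**Figure D4:**
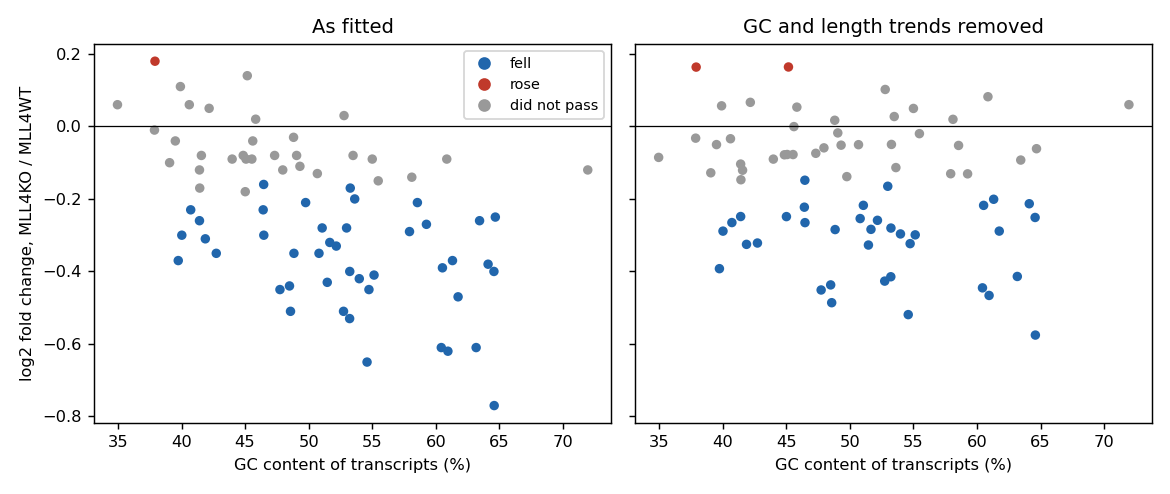
Log2 fold change (vertical axis) of the 75 genes against the GC content of their transcripts (horizontal axis, percent), as fitted on the left and with GC and length trends removed on the right, coloured by the call in each fit. The slope from low to high GC on the left (rho -0.52) is weaker on the right (rho -0.17), where 36 genes still fell.

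Genes that start next to each other were also compared. Starts in this and the next paragraph are the outermost start of each gene in GENCODE release 29, which can differ from the RefSeq start. MRPL46 (large subunit) and MRPS11 (small subunit) lie head to head on chromosome 15 with starts 34 bases apart. Their RefSeq promoter windows place the starts further apart, and overlap by 181 bases of the MRPL46 window printed above. MRPL46 went from 40.1, 41.5 and 41.0 CPM to 33.8, 32.2 and 30.2 CPM (log2 -0.35 ± 0.07, edgeR adjusted p = 0.00114), and MRPS11 from 30.2, 34.5 and 31.4 CPM to 25.1, 26.9 and 25.7 CPM (log2 -0.32 ± 0.07, edgeR adjusted p = 0.00437). Both fell by a like amount, without overlap between the genotypes.

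Of 26 neighbours outside the family 4 fell, a share no higher than the 21.6% of all tested genes that fell. For 12 of the genes that fell, a tested protein-coding gene outside the family starts within 1000 bases on the opposite strand, and 3 of these 12 partners fell, none rose, and their median log2 fold change was -0.12. For 13 genes that did not pass, 1 of 14 partners fell, with a median of 0.04. MRPL36 fell (log2 -0.35), while NDUFS6, a complex I gene 34 bases away by GENCODE, was at log2 0.01 (edgeR adjusted p = 0.954). However, the RefSeq window of MRPL36 (chr5:1799788-1800087) does not reach its GENCODE start (1801366). Nor does that of MRPL11 (chr11:66438799-66439098, GENCODE start 66466738), so the neighbour counts may differ with RefSeq starts. MRPS12 fell (log2 -0.61), while SARS2, the mitochondrial seryl-tRNA synthetase gene 348 bases away, was at log2 -0.09 (edgeR adjusted p = 0.381). MRPL57 (log2 -0.44) and the spindle gene SKA3, 43 bases away, both fell (SKA3 log2 -0.36, edgeR adjusted p = 0.000378). These neighbours were named after their values were seen, and differences within a pair were not tested.

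Among genes that build and use the mitochondrial ribosome, some fell in each of 4 lists, where 21.6% of all tested genes fell. Of 5 further mitoribosome proteins with other names, 3 fell, none rose, and the median was -0.20. The falls were 1.23-fold for AURKAIP1 and 1.15-fold for DAP3, both of the small subunit, and 1.16-fold for GADD45GIP1 of the large subunit (edgeR adjusted p = 0.000988, 0.00555 and 0.0225). With GC and length trends removed 1 of the 5, DAP3, still fell (log2 -0.19). GADD45GIP1 was also lost with total counts only, with upper quartile factors, and without MLL4KO replicate 1 or 3 (adjusted p 0.0791 to 0.129).

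Of 27 assembly factors 14 fell, none rose and the median was -0.18. DDX28, an RNA helicase of large subunit assembly, went from 23.9, 20 and 20.1 CPM to 9.80, 12.3 and 12 CPM, a larger fall than that of any of the 75 ribosomal protein genes (log2 -0.89 ± 0.11, edgeR adjusted p = 5.59e-05). MPV17L2 and MALSU1, both tied to the large subunit, fell 1.34-fold and 1.26-fold (edgeR adjusted p = 0.000504 and 0.000921), and MPV17L2 shrank to log2 -0.28 from -0.43 with GC and length trends removed. Without MLL4KO replicate 2 the number that fell was 9.

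Of 19 translation factors and helpers 9 fell, none rose and the median was -0.16. MRRF, the ribosome recycling factor, dropped to 27.5 ± 1.03 CPM in the knockout from 41.1 ± 2.77 CPM, a 1.49-fold fall (edgeR adjusted p = 5.94e-05). TACO1, an activator of MT-CO1 translation, fell 1.38-fold and OXA1L, which inserts new chains into the inner membrane, 1.31-fold (edgeR adjusted p = 4.53e-05 and 6.80e-05). Leaving out 1 library gave 6 to 13 falls in this list. MTIF2, GUF1 and GFM2 were lost with total counts only and with upper quartile factors. They were also lost without MLL4WT replicate 2, MLL4WT replicate 3, MLL4KO replicate 1 or MLL4KO replicate 2. The elongation factor gene TUFM was at log2 -0.04 ± 0.05 (edgeR adjusted p = 0.610), and passed as a fall without MLL4WT replicate 1 and with the header code in the fit (log2 -0.08 in both).

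Of 11 genes for mitochondrial transcription and its nuclear regulators 4 fell, none rose and the median was -0.10. ESRRA, a nuclear receptor that activates mitochondrial genes, went from 75.2, 71.7 and 75.6 CPM to 47.0, 46.3 and 45 CPM, well below the wild-type range (log2 -0.68 ± 0.05, edgeR adjusted p = 1.48e-06). TFB2M, a mitochondrial transcription factor, fell 1.19-fold and GABPB1, the partner of the ETS factor GABPA, 1.2-fold (edgeR adjusted p = 0.00720 and 0.0205). GABPB1 levels overlapped between the genotypes. The remaining fall was that of TEFM, an elongation factor of mitochondrial transcription (log2 -0.32 ± 0.10, edgeR adjusted p = 0.0252). The number that fell was 2 with total counts only, with upper quartile factors and by DESeq2, each without GABPB1 and TEFM. It was also 2 without MLL4WT replicate 2 or MLL4KO replicate 2, where GABPB1 and TEFM were lost, and without MLL4WT replicate 3 or MLL4KO replicate 1, where GABPB1 and TFB2M were lost. Among the motif-binding factors tested none passed, with NRF1 at log2 -0.02 ± 0.07 (edgeR adjusted p = 0.818), YY1 at 0.13 ± 0.06 (0.119) and MYC, an E-box factor, at -0.05 ± 0.04 (0.410). The ETS factor GABPA was left out by position, so no factor that binds the ETS motif was looked at. YY1 passed as a rise with total counts only, with upper quartile factors, with no filter, with the header code in the fit and without MLL4WT replicate 1 (log2 0.14 to 0.20), and TFAM with total counts only (log2 0.17, adjusted p = 0.0482). In these 4 lists no gene was higher at an unadjusted p under 0.05 by edgeR as reported here, and none rose by DESeq2 or limma-voom.

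Of the ribosomal RNAs, 1 rose. MT-RNR1, the ribosomal RNA of the small subunit, went from 2900, 2957 and 3253 CPM to 5130, 4596 and 4683 CPM, a rise of 1.58-fold (log2 0.66 ± 0.06, edgeR adjusted p = 4.14e-06). MT-RNR2, the ribosomal RNA of the large subunit, had 8227, 8278 and 9034 CPM in wild type against 9738, 8555 and 8818 CPM, with overlapping groups (log2 0.09 ± 0.06, edgeR adjusted p = 0.272). With the header code in the fit MT-RNR2 passed as a rise of the same size (log2 0.09, adjusted p = 0.000506). Both were read from poly(A)-selected RNA, so their levels also depend on how much of each carries a tail.

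**Figure D5:**
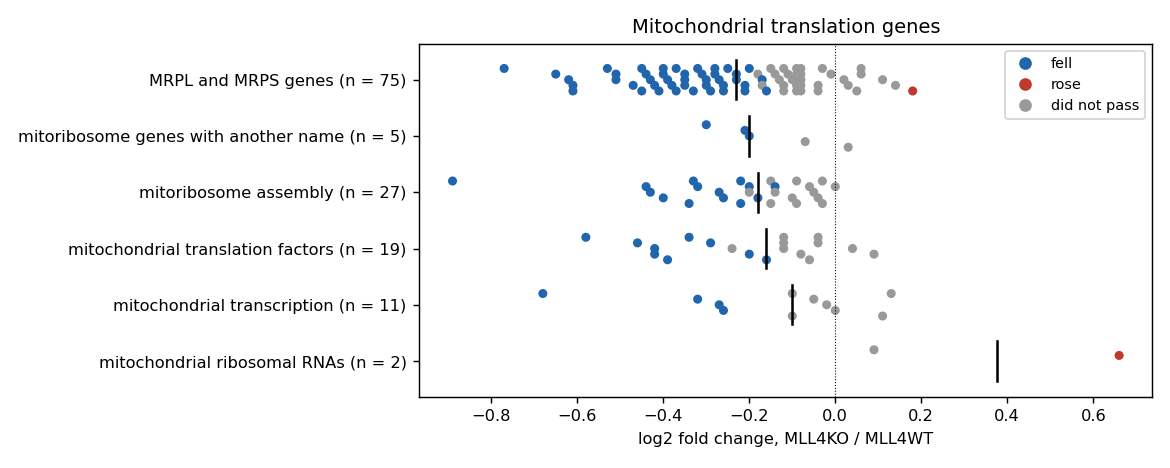
Log2 fold change (horizontal axis) of every tested gene of the MRPL and MRPS family and of the 5 related lists (rows), coloured by call, with black lines at the medians. Medians of the family and of the 4 protein gene lists lie between -0.23 and -0.10, and MT-RNR1 at 0.66 is the highest point.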

How the data were processed

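Expected counts per Ensembl gene ID, as whole numbers and with no normalisation, were deposited by the authors for 6 libraries. Salmon 1.8.0, DESeq2 1.44.0 and hg38 are named, without roles, per the submitters' processing notes. The annotation release and strand setting are not given in the sources used here. Symbols matched 55764 of 59715 IDs and GENCODE release 29 (GRCh38) held 56227. MLL4KO was compared with MLL4WT in R 4.3.3 with edgeR 4.0.16. Settings were filterByExpr, TMM scaling, the robust quasi-likelihood test with 4 residual degrees of freedom, and Benjamini-Hochberg over all tested genes. Transcript length is the median over a gene's basic GENCODE transcripts of the gene's type, and GC content is taken over the same transcripts. Alternatives used DESeq2 1.42.0 and limma 3.58.1, other scalings and filters, a replicate block, the header code, lowess removal of GC and length trends (span 0.3, 99.0% of genes with values), and leaving out libraries.

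Family members and lists were chosen with earlier results of these data known. Named genes were, per subunit by symbol, the 6 called rises and 6 called falls with the smallest adjusted p; the MRPS18 genes and MRPS30; the 3 highest and 3 lowest levels per length; the 3 first calls per direction of each list; and KMT2D. Other genes in the text were added after their values were seen. The lists lost MTERF3, YBEY and GABPA by position. Named pseudogenes held 1% or more of the counts of 2 of the 75 genes (MRPS31, 21.6%, and MRPL45, 3.39%), and 24 share exon bases with a gene of at least 10% of their counts. How the authors' counting split such reads is not known.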

Additional observations from a re-analysis of the deposited data

How the results depend on the processing

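The number of genes that fell (43 of 75) stayed between 36 and 54 over the 17 alternatives, and the number of large and small subunit genes that fell within 1.5 times of 27 and 16. No called gene changed sign in any of them. The median over the 75 genes was -0.17 with total counts only, -0.18 with upper quartile factors and -0.14 with GC and length trends removed. The large subunit median was then -0.14, -0.15 and -0.14, and the small subunit median -0.17, -0.18 and -0.13. Total counts only and upper quartile factors moved the median of all tested genes too, to 0.06 and 0.05. Total counts only and GC and length removal each give 2 rises, 1 of them in the small subunit. Leaving out 1 library gives 39 to 54 falls and 0 to 1 rises (0 to 1 in the large subunit). Over all tested genes, total counts only gave 25.5% rises against 16.5% falls, and upper quartile factors gave 24.5% rises against 17.0% falls.

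With the replicate number as a block 41 genes fell and 1 rose, at a median of -0.23 (large subunit 25 fell, 1 rose, -0.20; small subunit 16 fell, 0 rose, -0.24). Deviations of same-numbered libraries correlated at 0.025, 0.034 and -0.015, and not every library correlated best with its own number. Libraries of the 2 genotypes under the same header code correlated at 0.05, 0.034 and 0.045. These were the highest values of any pair across the genotypes, though low as well. Such low values cannot show whether the numbers pair the libraries. Of the 44 calls 42 remained under the block. With 3 libraries a group the smallest called fall was 1.12-fold.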
